A study of Homo sapiens with 3 samples.

Results

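The 10 genes described here are ATF4, DDIT3, ASNS, TRIB3, CHAC1, SESN2, PSAT1, PHGDH, DDIT4 and CEBPB, a set of transcripts tied to the amino acid stress response. They were taken by name from the gene values of RNA-seq in 293T cells, a line derived from human embryonic kidney, and 10 of 10 were found among the 23284 genes listed. The cells of each of the 3 libraries expressed dCas9-VP64, which is a cleavage-dead Cas9 joined to a transcriptional activator. The control library (mock) carried in addition the parental sgRNA vector with no L1 guide, and the other libraries carried sgL1ASP #1 or sgL1ASP #3, guides aimed at the antisense promoter (ASP) of the retrotransposon LINE-1 (L1). The cells of all conditions are 1 cell line in bulk culture, and neither the share of cells that took up the plasmids nor the time of RNA collection for sequencing is given in the sources used here. In bulk RNA, a change in every cell and a larger change in some of the cells cannot be told apart. In the authors' reporter assays in 293T cells, both guides raised ASP activity, sgL1ASP #1 more than sgL1ASP #3. On the L1 sense promoter they differed, with lower activity for sgL1ASP #1 and slightly higher activity for sgL1ASP #3. The comparisons ask whether expressing a guide aimed at the L1 ASP was accompanied by a change in the RNA of these genes.

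There was 1 library per condition. Differences below can therefore not be set against a spread between replicates, and they carry no p-value. Values are FPKM (mapped fragments scaled to exon length and library size), so that levels may be compared between genes. Between libraries they depend on the scaling, and the deposited values sum to 619903 (mock), 661449 (sgL1ASP #1) and 673483 (sgL1ASP #3). Read counts are not part of the deposited values. From the spacing of the lowest FPKM, an estimate of the depth was obtained, 10500000 reads for mock, 10300000 for sgL1ASP #1 and 8690000 for sgL1ASP #3, and the 95% intervals below, which rest on these estimates, cover counting error only. Log2 changes are those of FPKM + 0.1. Of the markers of 293T cells, 6 of 7 had mean FPKM of at least 1, among them VIM with FPKM 807 in mock, and PAX2 had FPKM 0.522 to 0.658. Of 9 markers of other cell types, 3 (PTPRC, CD3E and DCN) were listed at 0 in all libraries, and 1 had mean FPKM of at least 1, the collagen gene COL1A1 with FPKM 2.55 (mock), 1.99 (sgL1ASP #1) and 2.46 (sgL1ASP #3). GFAP had 1.21, 0.767 and 0.915, COL3A1 had 0.468, 0.292 and 0.152, and the FPKM of all 9 summed to 4.76, 3.55 and 4.06. The part of these markers in the results was not tested.

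When amino acids run short, uncharged tRNA activates the kinase GCN2 (EIF2AK4), which phosphorylates the translation factor eIF2. Other stresses reach the same point through PERK, PKR and HRI. Most translation then slows, while upstream reading frames in the ATF4 mRNA allow more ATF4 protein to be made, so that the level of ATF4 mRNA alone does not give the level of the protein. ATF4 is a basic leucine zipper transcription factor that binds, often as a dimer with a C/EBP protein, to composite C/EBP-ATF elements and switches on genes for amino acid synthesis, amino acid import and the damping of growth. The other 9 genes are known targets or partners of ATF4.

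The C/EBP-ATF element was looked for as TGATGNAA, on either strand, in promoter windows from 250 bases before to 50 bases after each RefSeq start (GRCh38.p14). All 10 genes were matched to windows, 16 windows in all. The motif was found in 2 of the 10 genes, ASNS and CHAC1, against 1217 of all 27305 genes with a window (4.46%). The 2 matches are shown because ASNS is the textbook amino acid response gene and CHAC1 is the gene of the set with the largest change. Both are given 5′ to 3′ in the direction of the gene, with the motif in capitals, at chr7:97872458-97872487 for ASNS (minus strand) and chr15:40953251-40953280 for CHAC1 (plus strand).

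ASNS: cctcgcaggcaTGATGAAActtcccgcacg
CHAC1: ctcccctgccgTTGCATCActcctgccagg

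The ASNS motif runs from base -68 to -61 counted from the start of transcription. The CHAC1 motif runs from -209 to -202 and reads TGATGCAA on the opposite strand, a form found in 1.08% of all genes with a window. The palindromic cyclic AMP element TGACGTCA, which shares no full match with the first motif, was found in 0 of the 10 genes and in 2.25% of all genes. These are matches of letters in a short window. ATF4 elements of other genes can lie outside it, and binding was not measured here.

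The 10 genes were all expressed, with FPKM above 6 in each library. Between the highest and the lowest, ATF4 and CHAC1, FPKM differed 100.5-fold in mock. ATF4 mRNA held rank 86 of 23284 genes in mock, and its FPKM made up 50.4% of the sum over the 10 genes with mock, 50.1% with sgL1ASP #1 and 50.4% with sgL1ASP #3. By mean FPKM the order was ATF4, PHGDH, DDIT3, ASNS, PSAT1, DDIT4, SESN2, TRIB3, CEBPB and CHAC1. Steps in this order were wide at the top, where ATF4 stood 2.96 to 3.05 times above PHGDH. Neighbours that could not be put in order were DDIT3 and ASNS, whose FPKM ratio was 0.977 with mock, 1.08 with sgL1ASP #1 and 0.997 with sgL1ASP #3, and TRIB3 and CEBPB, with ratios of 1.12, 0.993 and 1.02.

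**Figure D1:**
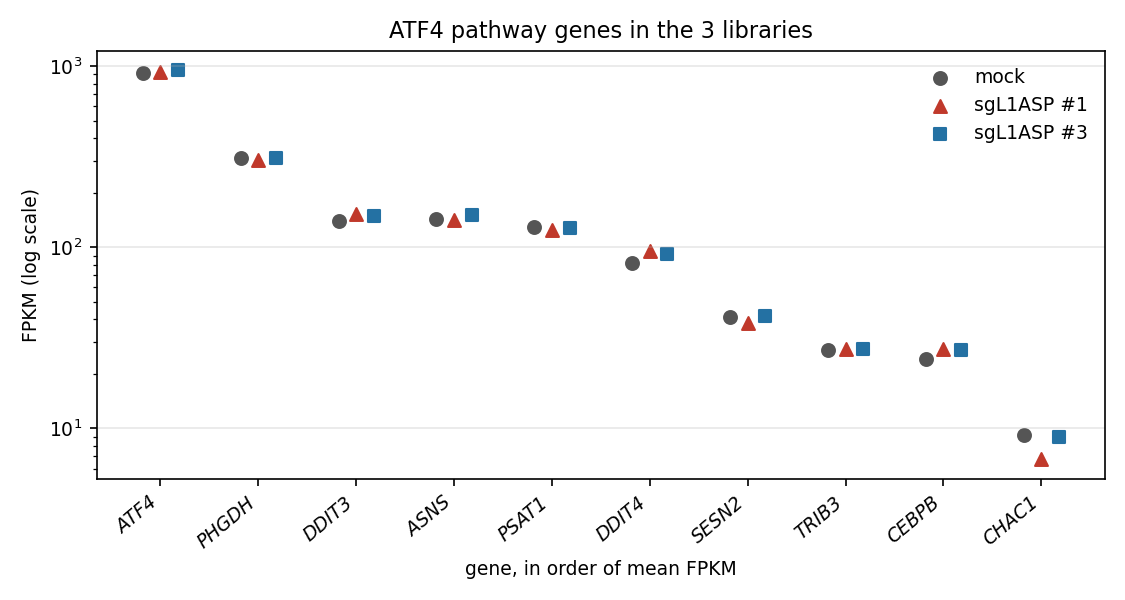
FPKM (log axis) of the 10 ATF4 pathway genes in the mock (circles), sgL1ASP #1 (triangles) and sgL1ASP #3 (squares) libraries, with genes in order of mean FPKM. Each symbol is 1 library, the 3 symbols of most genes lie side by side, and CHAC1 with sgL1ASP #1 (6.77) is set below the other two.

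None of the 10 genes changed by more than 1.5-fold in any comparison. Among all 12830 genes with mean FPKM of at least 1, the shares past 1.5-fold in either direction were 3.55% for sgL1ASP #1 against mock, 3.8% for sgL1ASP #3 against mock and 3.77% between the guides. Past the smaller limit of 1.2-fold lay 1 of the 10 genes with sgL1ASP #1 (CHAC1, lower), 0 with sgL1ASP #3, and 1 between the guides (CHAC1, lower with sgL1ASP #1). The shares of all genes past 1.2-fold were 14.4%, 14.8% and 14.7%, and among the 4637 genes with mean FPKM of at least 20, the range that holds the other 9 genes, they were 4.49%, 4.18% and 4.38%. The median log2 change of the 10 genes was -0.0011 with sgL1ASP #1, 0.038 with sgL1ASP #3 and -0.033 between the guides, beside 0.00085, 0.0015 and -0.0027 over all 12830 genes.

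**Figure D2:**
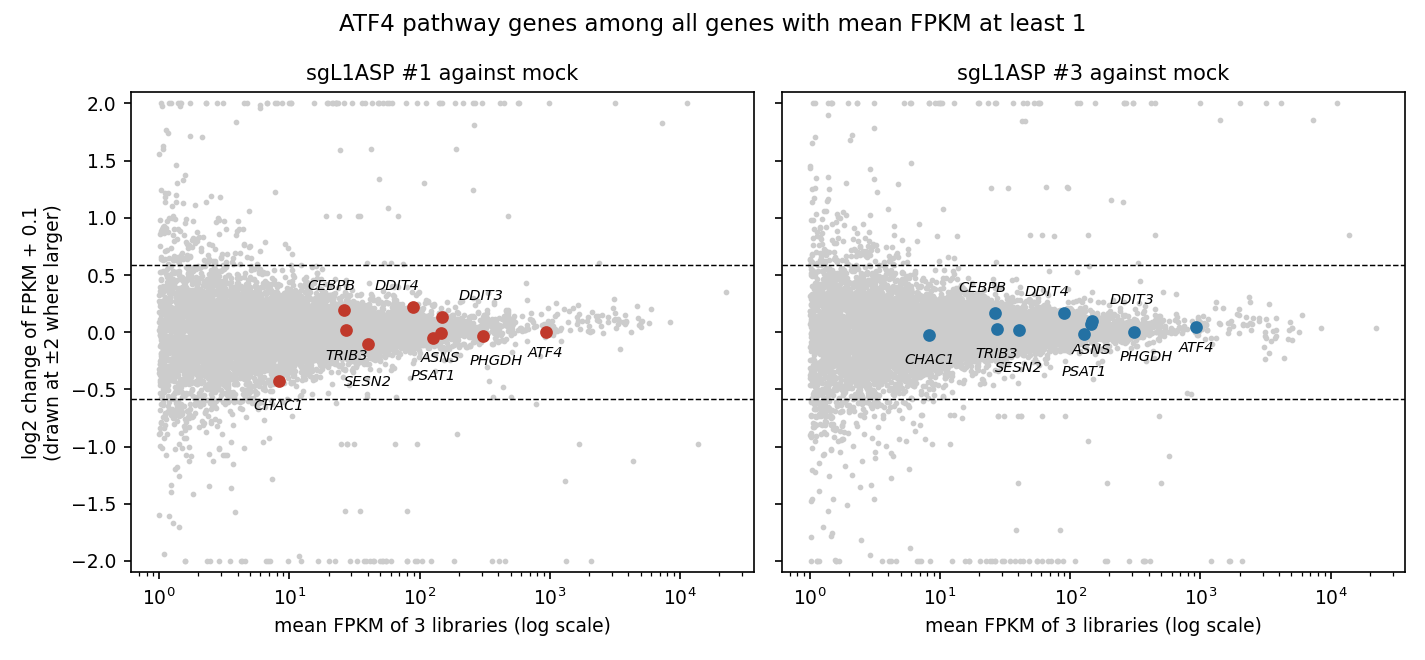
Log2 change of FPKM + 0.1 against mock (vertical axis, values beyond the axis drawn at its edge) by mean FPKM (log axis), for sgL1ASP #1 on the left and sgL1ASP #3 on the right. Grey points are the 12830 genes with mean FPKM of at least 1, coloured points the 10 ATF4 pathway genes, and dashed lines mark 1.5-fold, between which all 10 genes lie.

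The transcription factors were ATF4 itself, DDIT3 and CEBPB. ATF4 lies on chromosome 22 from 39915700 to 39918688 (GRCh37, used for all gene positions). Its FPKM was 920.0 with mock, 924 with sgL1ASP #1 and 950.0 with sgL1ASP #3. The 3 values spanned 1.03-fold. The ratio to mock was 1.004 with sgL1ASP #1 (95% counting interval 0.979 to 1.03) and 1.03 with sgL1ASP #3 (1.01 to 1.06), a direction that turned when the libraries were brought to an equal FPKM sum. GENCODE lists 4 pseudogenes of ATF4, of which 0 are among the genes listed, and how reads that match them were assigned is not given in the sources used here.

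DDIT3, which encodes CHOP, a C/EBP-like factor tied to cell death under lasting stress, lies on chromosome 12 from 57910371 to 57915520. Its FPKM was 139.6 with mock, 153.5 with sgL1ASP #1 and 149.5 with sgL1ASP #3, lowest in mock. The ratio to mock was 1.10 with sgL1ASP #1 (1.01 to 1.197) and 1.07 with sgL1ASP #3 (0.980 to 1.17). The annotation places a microRNA gene, MIR616, and a further gene on the same strand over DDIT3.

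CEBPB, a C/EBP family factor that pairs with ATF4, lies on chromosome 20 from 48807367 to 48809205. Its FPKM was 24.1 with mock, 27.5 with sgL1ASP #1 and 27.1 with sgL1ASP #3, again lowest in mock. The ratios to mock were 1.14 (0.9997 to 1.30) and 1.12 (0.978 to 1.29), and both intervals reach below 1. An antisense gene, CEBPB-AS1, overlaps it, and the libraries were counted by strand.

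TRIB3, a pseudokinase that ATF4 induces and that holds ATF4 and CHOP back, varied least of the 10 genes, by 1.02-fold from lowest to highest. It lies on chromosome 20 from 343479 to 378203 and had FPKM 27.1 with mock, 27.4 with sgL1ASP #1 and 27.6 with sgL1ASP #3. The ratios to mock were 1.01 (0.904 to 1.13) and 1.02 (0.908 to 1.15).

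SESN2 and DDIT4 both restrain the growth kinase complex mTORC1, SESN2 (Sestrin2) as a leucine sensor and DDIT4 (REDD1) through the TSC complex. DDIT4, on chromosome 10 from 74033678 to 74035794, had FPKM 81.6 with mock, 95.02 with sgL1ASP #1 and 91.7 with sgL1ASP #3. The ratio to mock was 1.16 with sgL1ASP #1 (1.08 to 1.25) and 1.12 with sgL1ASP #3 (1.04 to 1.22), the highest of the 10 genes with either guide. A change at least as large in either direction was found in 6.90% of the genes with mean FPKM of at least 20 with sgL1ASP #1 and in 10.9% with sgL1ASP #3. SESN2, on chromosome 1 from 28586029 to 28609002, had FPKM 41.0 with mock, 38.2 with sgL1ASP #1 and 41.5 with sgL1ASP #3. Its ratio to mock was 0.932 with sgL1ASP #1 (0.864 to 1.005) and 1.01 with sgL1ASP #3 (0.937 to 1.09), while between the guides it was 0.920 (0.850 to 0.996).

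CHAC1, a glutathione-degrading enzyme induced by ATF4 together with ATF3 and CHOP, had the lowest FPKM and the largest change of the 10 genes. It lies on chromosome 15 from 41245160 to 41248710. Its FPKM was 9.15 with mock, 6.77 with sgL1ASP #1 and 8.98 with sgL1ASP #3, so the sgL1ASP #1 library stood apart from the other two. The ratio of sgL1ASP #1 was 0.740 to mock (0.566 to 0.968) and 0.755 to sgL1ASP #3 (0.570 to 0.999), and that of sgL1ASP #3 to mock was 0.981 (0.756 to 1.27). The log2 change of CHAC1 with sgL1ASP #1 was -0.43, and 6.24% of all 12830 genes changed at least as much in either direction. Behind these values stood an estimated 126 reads with mock, 92.1 with sgL1ASP #1 and 103 with sgL1ASP #3, fewer than for any other gene of the set.

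The 3 genes whose changes against mock lay nearest to those of CHAC1, by Euclidean distance of the log2 changes over the 3 libraries, were SP4, MGC16703 and ATP1A1OS, at distances of 0.014, 0.015 and 0.022. A distance of up to 0.05 from CHAC1 was found for 19 genes.

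Enzymes of amino acid synthesis made up the last group, and each spanned 1.02- to 1.05-fold over the 3 libraries. ASNS, asparagine synthetase, lies on chromosome 7 from 97480989 to 97501854 and had FPKM 142.9 with mock, 142.1 with sgL1ASP #1 and 149.9 with sgL1ASP #3. Its ratios to mock were 0.994 (0.947 to 1.04) and 1.05 (0.997 to 1.10). Of the 2 genes with the TGATGNAA motif, ASNS thus stayed within 1.05-fold of mock with either guide, while CHAC1 was lower with sgL1ASP #1. The annotation also places a further gene on the same strand over ASNS.

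PHGDH and PSAT1 catalyse the first and second steps of serine synthesis. PHGDH, on chromosome 1 from 120191034 to 120286841, had FPKM 311 with mock, 304 with sgL1ASP #1 and 311 with sgL1ASP #3. PSAT1, on chromosome 9 from 80912041 to 80945009, followed with FPKM 129.4, 125.0 and 127.9 in that order. The ratios to mock with sgL1ASP #1 were 0.979 for PHGDH (0.943 to 1.02) and 0.966 for PSAT1 (0.915 to 1.02), and with sgL1ASP #3 they were 1.001 (0.962 to 1.04) and 0.988 (0.934 to 1.05). PHGDH stood 2.40 to 2.43 times above PSAT1 in FPKM in all 3 libraries. Pseudogenes are likewise annotated for PSAT1 (4) and for ASNS (6 entries), with 0 of them among the genes listed.

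**Figure D3:**
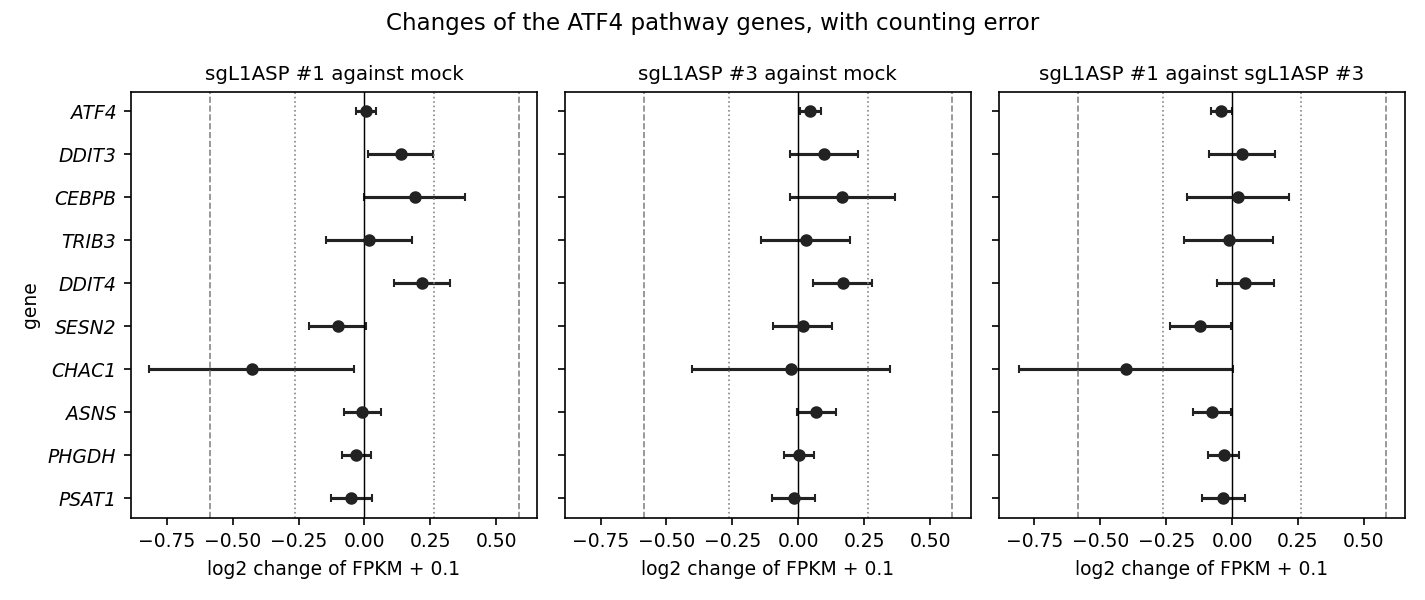
Log2 change of FPKM + 0.1 (horizontal axis) of the 10 genes in the 3 comparisons, with bars for the 95% counting interval at the estimated depth. Dotted lines mark 1.2-fold and dashed lines 1.5-fold. Of the 5 genes to the right of 0 with both guides, DDIT3, CEBPB and DDIT4 lie farthest out. CHAC1 lies farthest to the left with sgL1ASP #1.

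With sgL1ASP #1, 5 of the 10 genes were higher and 5 lower than in mock, where 50.3% of all 12830 genes were higher. With sgL1ASP #3, 8 were higher and 2 lower, where 50.4% of all 12830 genes were higher. The range from mean FPKM 20 upward, which holds 9 of the 10, leaned further to the higher side. Over its 4637 genes, 2550 exceeded mock with sgL1ASP #1 and 2078 fell below, and with sgL1ASP #3 it was 2603 and 2017. Both comparisons use the same mock library, so a low or high value in mock enters both, and the side-by-side values of DDIT3, CEBPB and DDIT4 are not independent of each other. The direction also depended on the scaling of the libraries. Scaling by the median ratio over genes left 5 higher and 5 lower with sgL1ASP #1, and 7 higher and 3 lower with sgL1ASP #3. ATF4 changed there by 0.0060 and 0.043, and CHAC1 by -0.43 and -0.030. Bringing all libraries to an equal FPKM sum shifted the median over all genes, on the log2 scale, by -0.092 with sgL1ASP #1 and by -0.12 with sgL1ASP #3. On that scale 3 and 2 of the 10 genes were higher than in mock, beside 25.6% and 21.7% of all genes. ATF4 then turned from 0.0059 and 0.046 to -0.088 and -0.073. DDIT4 changed by 0.13 and 0.049, CEBPB by 0.097 and 0.048, DDIT3 by 0.043 and -0.021, and CHAC1 by -0.52 and -0.15. Relative to mock, the median ratio multiplied sgL1ASP #1 by 1.0001 and sgL1ASP #3 by 0.998, and the equal sum by 0.937 and 0.920. Single genes can weigh on a sum. Among the 4637 genes, deposited log2 changes ran from -15.92 to 17.69 with sgL1ASP #1 and from -15.92 to 16.94 with sgL1ASP #3. The part of such genes in the sums was not tested.

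The remaining genes of the response were followed as 5 lists of 77 genes, of which 72 had mean FPKM of at least 1. Past 1.5-fold lay 1 of the 72 with sgL1ASP #1, 0 with sgL1ASP #3 and 0 between the guides, beside the 3.55%, 3.8% and 3.77% of all genes. Past 1.2-fold lay 4 with sgL1ASP #1 (2 higher and 2 lower), 5 with sgL1ASP #3 (1 higher and 4 lower) and 2 between the guides (ATF7 and CHAC2, both lower with sgL1ASP #3), again beside 14.4%, 14.8% and 14.7% of all genes. Among genes with mean FPKM of at least 20, where many of the 72 lie, the shares past 1.2-fold were 4.49%, 4.18% and 4.38%. The 77 genes were chosen with earlier results of the same libraries known.

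Upstream of ATF4, all 16 genes for the eIF2 kinases, the GCN2 regulators GCN1L1 and IMPACT, eIF2, its exchange factor eIF2B and the phosphatase subunits stayed within 1.2-fold in every comparison, where 14.4%, 14.8% and 14.7% of all genes did not. Most of the 16 had mean FPKM of at least 20, where the shares past 1.2-fold were only 4.49%, 4.18% and 4.38%. The median log2 change of the 16 genes was 0.0092 with sgL1ASP #1 and 0.023 with sgL1ASP #3. EIF2AK4, the GCN2 kinase, had FPKM 12.0 with mock, 11.8 with sgL1ASP #1 and 10.9 with sgL1ASP #3. The largest change was that of IMPACT, an inhibitor of GCN2, with FPKM 10.3, 12.2 and 11.8 and log2 changes of 0.24 and 0.19. Its ratios to mock were 1.18 (1.03 to 1.36) and 1.14 (0.988 to 1.32). EIF2AK2 (PKR) lay nearly as far in the other direction, with FPKM 8.92, 7.71 and 7.82. Its ratios to mock, which share the mock library, were 0.864 (0.785 to 0.951) and 0.876 (0.793 to 0.968). Of the 16 genes, 9 were higher and 7 lower than in mock with either guide. PPP1R15A (GADD34), an ATF4-pathway gene that reverses eIF2 phosphorylation, had FPKM 62.6, 63.3 and 59.4.

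Among 12 basic leucine zipper and related regulators, CEBPD was the gene past 1.5-fold. CEBPD, a C/EBP factor of acute responses, had FPKM 2.83 with mock, 4.62 with sgL1ASP #1 and 4.06 with sgL1ASP #3, lowest in mock. Its ratio to mock was 1.63 with sgL1ASP #1 (1.04 to 2.56) and 1.44 with sgL1ASP #3 (0.892 to 2.31), resting on an estimated 31.1, 50.1 and 37.1 reads. With a pseudocount of 1 it did not pass 1.5-fold. ATF7 was past 1.2-fold with sgL1ASP #3, where its FPKM was 8.04 against 11.1 in mock. Its ratio to mock was 0.878 with sgL1ASP #1 (0.790 to 0.975) and 0.725 with sgL1ASP #3 (0.645 to 0.815). The estimated reads were 749 with mock, 648 with sgL1ASP #1 and 451 with sgL1ASP #3. ATF3, a stress factor downstream of ATF4, had FPKM 68.7, 69.8 and 73.0, and ATF5 had 18.8, 15.9 and 17.5. The median of the list was -0.086 with sgL1ASP #1 and -0.052 with sgL1ASP #3.

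Of 17 amino acid synthesis enzymes 0 passed 1.2-fold, beside 14.4% of all genes with sgL1ASP #1 and 14.8% with sgL1ASP #3. Most of the 17 had mean FPKM of at least 20, where the shares were only 4.49% and 4.18%. PSPH, the last enzyme of serine synthesis, had FPKM 12.1 with mock, 10.3 with sgL1ASP #1 and 10.49 with sgL1ASP #3, far under PHGDH and PSAT1 in each library. CTH, which makes cysteine from cystathionine, had FPKM 19.3, 21.8 and 22.7. The list's medians were -0.034 and 0.028 on the log2 scale.

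Of 12 amino acid transporters, SLC1A4 was higher just past 1.2-fold (1.202) and SLC7A11 lower past 1.2-fold with sgL1ASP #1, and 0 passed with sgL1ASP #3, beside the same shares of all genes. SLC1A4, a carrier of small neutral amino acids, had FPKM 11.3 with mock, 13.6 with sgL1ASP #1 and 12.8 with sgL1ASP #3. SLC7A11, the cystine importer, had FPKM 1.63, 1.32 and 1.47. SLC3A2, the heavy chain that SLC7A11 and SLC7A5 share, had FPKM 464, 446 and 464. The medians of the list were -0.069 and 0.0012.

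The last list held paralogs of the 10 genes and other outputs of the response, 15 of 19 with mean FPKM of at least 1. GDF15, a secreted stress hormone, was lower past 1.2-fold with both guides, with FPKM 2.69 with mock, 2.14 with sgL1ASP #1 and 2.19 with sgL1ASP #3, at an estimated 28.1, 22.0 and 19.1 reads. Its ratios to mock, which share the mock library, were 0.796 (0.456 to 1.39) and 0.817 (0.456 to 1.46), with intervals that span 1. KLHL24 and CHAC2, the paralog of CHAC1, were lower past 1.2-fold with sgL1ASP #3. KLHL24 had FPKM 4.37, 3.72 and 3.46. CHAC2 had 14.6, 14.5 and 12.0, so that CHAC2 was lowest in the library where CHAC1 was near its mock value. With sgL1ASP #3 the ratio to mock was 0.791 (0.666 to 0.940) for KLHL24. For CHAC2 it was 0.822 (0.649 to 1.04), an interval that spans 1, at an estimated 170 reads with mock and 116 with sgL1ASP #3. Of the 15 genes, 8 were higher and 7 lower than in mock with sgL1ASP #1, and 4 and 11 with sgL1ASP #3. STC2 and VEGFA were higher with both guides, within 1.2-fold. The ratios to mock were 1.18 (1.12 to 1.24) and 1.08 (1.02 to 1.15) for STC2. For VEGFA they were 1.10 (1.05 to 1.16) and 1.12 (1.07 to 1.18). The medians of the list were 0.0060 with sgL1ASP #1 and -0.090 with sgL1ASP #3.

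**Figure D4:**
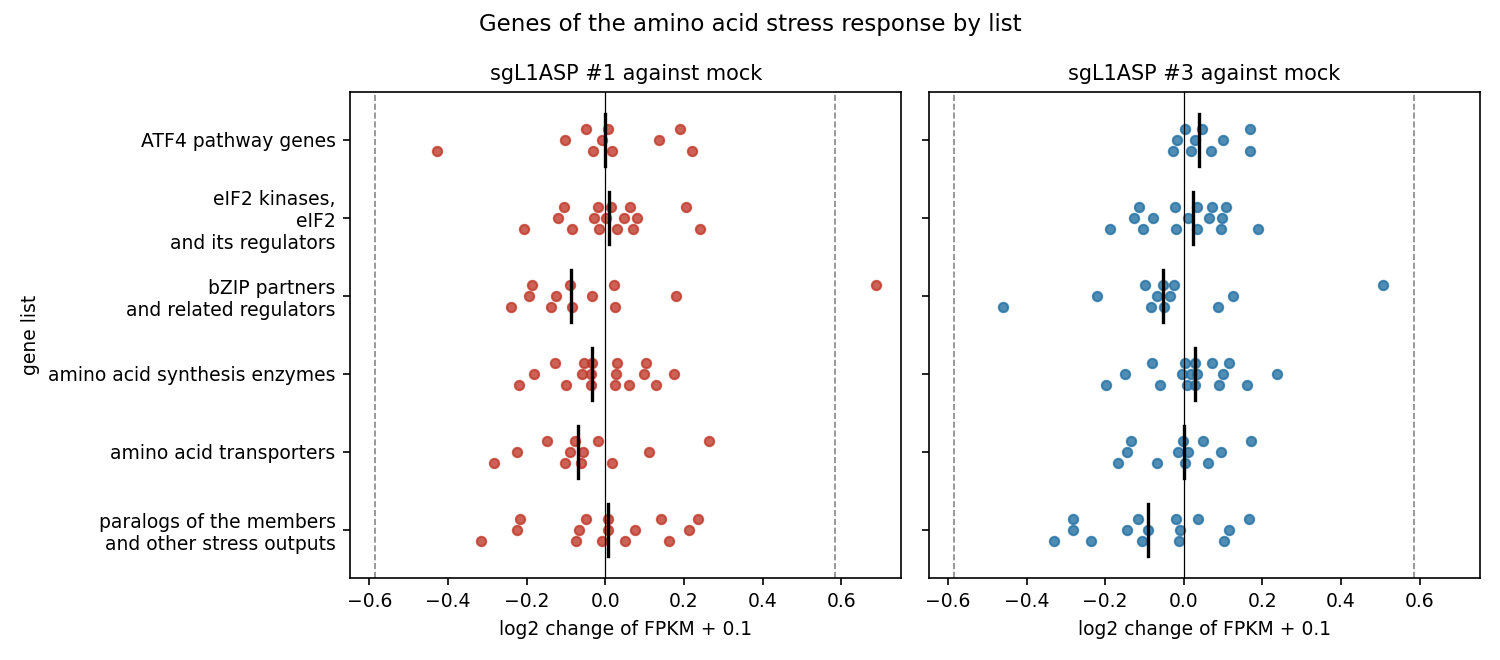
Log2 change of FPKM + 0.1 against mock (horizontal axis) for the 10 ATF4 pathway genes and the 5 lists, with 1 point per gene of mean FPKM at least 1, a black bar at the median of each list and dashed lines at 1.5-fold. Of the points, CEBPD with sgL1ASP #1 lies past a dashed line.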

How the data were processed

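RNA-seq was carried out with 1 library per condition. Per the labels and methods, the authors prepared stranded mRNA libraries (75-base single-end reads), mapped the reads to hg19 with TopHat2 2.0.13, Bowtie2 2.2.3 and SAMtools 0.1.19, and deposited 1 FPKM value per gene from Cuffdiff (Cufflinks 2.2.1). The annotation and the scaling between libraries are not given in the sources used here. FPKM were used without rescaling, and log2 changes used a pseudocount of 0.1. Genes with mean FPKM of at least 1 formed the background.

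The members and lists were chosen with earlier results of these data known. Named besides the 10 genes are, for each list, genes past 1.5-fold and those with the largest change with either guide, together with the 3 genes nearest in pattern to the member farthest from 0. PAX2, VIM, PTPRC, CD3E, DCN, COL1A1, COL3A1, GFAP, EIF2AK2, EIF2AK4, PPP1R15A, ATF3, ATF5, ATF7, SLC3A2, CHAC2, STC2 and VEGFA were named after their values were seen. Coordinates are GENCODE 44 lifted to GRCh37. Depth was estimated from genes with a single transcript over 1000 bases, less a fragment of 200 bases, using 35 to 55 genes per library. The number of value columns of no sample was 0. The call rule and the depth estimate were tested on simulated data with counting error only. Differences between libraries in preparation or culture were not simulated. Python 3.11.15, NumPy 2.4.6, pandas 2.3.3 and matplotlib 3.10.9 were used.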

Additional observations from a re-analysis of the deposited data

How the results depend on the processing

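No paired analysis was possible because there was 1 library in each group, and for the same reason no library could be left out. The number of the 10 ATF4 genes past 1.5-fold was 0 in each comparison under pseudocounts of 0.01 and 1, both rescalings and a 2-fold limit. The counts past 1.2-fold did not change under either pseudocount or either rescaling. After rescaling to a sum of 1000000, the median log2 change of the 10 genes went from -0.0011 to -0.095 with sgL1ASP #1 and from 0.038 to -0.082 with sgL1ASP #3. Of the 30 log2 changes of single genes, 10 shifted beyond their counting interval under that rescaling and 0 under the other settings.

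The numbers of all genes past 1.5-fold, 456 with sgL1ASP #1, 488 with sgL1ASP #3 and 484 between the guides, were 243, 256 and 286 with a pseudocount of 1, 186, 186 and 215 above 2-fold, 2167, 2226 and 2275 with no filter on FPKM, and 97, 93 and 97 with mean FPKM of at least 20, a limit chosen after seeing the data. Rescaling to a sum of 1000000 gave 678 with sgL1ASP #1, 744 with sgL1ASP #3 and 687 between the guides. CEBPD was lost with a pseudocount of 1, which left 0 of the basic leucine zipper list past 1.5-fold. With no filter, 1 gene of the list of paralogs and other outputs passed with sgL1ASP #1 and 1 between the guides.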
